A study of Homo sapiens with 24 samples.

Results

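The genes described here are the enzymes that make cholesterol from acetyl-CoA, the enzymes that make and desaturate fatty acids, and the proteins that regulate both. A list of 34 gene symbols was matched to the array's annotation, and a gene was kept only where a probe set carries its symbol alone. Of the 34, 29 had such a probe set, 55 probe sets in all, and all 29 passed the filter on dim signals. They are part of 11963 genes named in this way on the array, of which 9966 were tested. The kept genes were 16 of 18 sterol enzymes, 8 of 10 genes of the fatty acid branch, and 5 of 6 regulators. FDFT1, STARD4 and ACSS2 were not analysed here. CYP51A1 and FADS1 were also left out, because their 2 and 3 probe sets name a second gene as well.

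The cells were HepaRG, a human liver progenitor line that can mature into hepatocyte-like and biliary-like cells. Per the labels' protocols they were grown for 2 weeks in William's E medium with foetal serum, penicillin, streptomycin, insulin and hydrocortisone hemisuccinate, and for 2 more weeks with dimethyl sulfoxide added. The hepatocyte-like cells were then detached by mild trypsin treatment and replated at low density, which the labels call reprogramming, and RNA was taken at once (0 h), at 1 and 4 h, every 4 h up to 16 h, and at 24 and 48 h. Each of these 8 times has 3 arrays. The groups differ by time alone: all carry the earlier hydrocortisone, insulin and dimethyl sulfoxide, and the 0 h arrays are the only reference. The sources used here do not give the medium after replating, nor whether the 3 replicates were separate cultures. The p-values therefore rest on the spread among these samples, which could be a technical one. A single cell line, with hepatocyte-like rather than primary cells, limits the model.

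Sterol and fatty acid synthesis are controlled together by the sterol regulatory element binding proteins, made from SREBF1 and SREBF2. SCAP carries these precursors from the endoplasmic reticulum to the Golgi for cleavage, and INSIG1 and INSIG2 hold SCAP back when sterols are plentiful. The SREBF2 product acts mainly on sterol genes and the SREBF1 product mainly on fatty acid genes, and in liver insulin and liver X receptors raise SREBF1. The cleaved factors act on promoters together with NF-Y, which binds CCAAT boxes, and with Sp1, which binds GC boxes.

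Promoter sequences are shown for 4 genes whose time courses differ: HMGCS1 and INSIG1, which fell and then rose, TM7SF2, which fell and was still low at 48 h, and SREBF2, for which no change was called. Each is the 200 bases that end just before the RefSeq transcription start, 5' to 3' on the gene's own strand, from RefSeq on build GRCh38.p14. HMGCS1 has 2 starts in that table, and the one with CCAAT boxes before it is shown. The capitals mark the CCAAT box, as CCAAT or its reverse complement ATTGG, and the sterol regulatory element, searched as TCACNCCAC on both strands. The stretches lie at chr5:43313413-43313612 on the minus strand for HMGCS1, chr7:155297678-155297877 on the plus strand for INSIG1, chr11:65111672-65111871 on the plus strand for TM7SF2, and chr22:41832905-41833104 on the plus strand for SREBF2.
HMGCS1: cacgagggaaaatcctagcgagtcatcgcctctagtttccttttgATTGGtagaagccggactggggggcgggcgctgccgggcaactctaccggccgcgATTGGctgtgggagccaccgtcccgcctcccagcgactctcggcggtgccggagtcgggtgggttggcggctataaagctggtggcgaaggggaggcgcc
INSIG1: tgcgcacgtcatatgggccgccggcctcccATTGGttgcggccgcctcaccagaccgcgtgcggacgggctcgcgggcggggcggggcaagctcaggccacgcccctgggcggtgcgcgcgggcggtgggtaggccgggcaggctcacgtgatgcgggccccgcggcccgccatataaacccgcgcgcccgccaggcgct
TM7SF2: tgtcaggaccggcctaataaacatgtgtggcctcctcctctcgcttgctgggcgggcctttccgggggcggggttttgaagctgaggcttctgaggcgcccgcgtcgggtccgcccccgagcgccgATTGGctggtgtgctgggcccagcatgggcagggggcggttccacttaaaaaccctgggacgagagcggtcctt
SREBF2: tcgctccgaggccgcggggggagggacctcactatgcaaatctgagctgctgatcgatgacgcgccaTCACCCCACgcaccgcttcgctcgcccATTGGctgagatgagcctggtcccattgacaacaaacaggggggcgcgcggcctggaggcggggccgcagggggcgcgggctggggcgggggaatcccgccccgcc

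Windows of 300 bases, from 250 before to 50 after the start, were found for 26 of the 29 genes. SQLE, ACAT2 and FASN had none in the table used. The CCAAT box was present in a window of 13 of the 14 sterol genes (92.9%), PMVK being the exception, and in 4 of 7 genes of the fatty acid branch (57.1%), ACLY, ACACA, SCD and FADS2. Of all 27305 genes in the promoter table, 39.7% held it. The GC box, searched as GGGCGG, was in 13 of 14 sterol genes, in 7 of 7 genes of the fatty acid branch and in 48.3% of all genes. The sterol element TCACNCCAC was found in 1 of the 26 genes, SREBF2, against 1.39% of all genes. CACGTG, the E-box, was in LSS, SC5D, INSIG1 and SCAP, against 8.77% of all genes. All motifs were searched on both strands. The search shows only which letters are in these windows.

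Each value is a deposited array signal, a linear intensity that MAS5 made for 1 probe set on 1 array. Signals were analysed as log2(signal + 18.1), so fold changes of dim genes are understated, and a change was called where the adjusted p was under 0.05 and the difference at least 2-fold. The median signal of the 24 arrays was between 99.8 and 141.9. It was 133.9, 141.9 and 129.9 on the 0 h arrays and 118.9, 122.2 and 102.1 on the 24 h arrays. The correlation was 0.936 to 0.968 within a time and 0.838 to 0.959 between times. The ratio of the 3' to the 5' probe set of ACTB, a sign of RNA integrity, was 2.03, 6.91 and 2.56 on the 0 h arrays. It was 1.30, 1.52 and 1.24 at 24 h and 1.02, 1.27 and 1.20 at 48 h. The ratio thus differs between the 0 h reference and the late times. The highest ratio, 6.91, was on 0 h replicate 2, and all other arrays had 1.02 to 2.56. On 0 h replicate 2 the sterol mean described below was 0.905, against 0.902 and 0.905 on the other 0 h arrays. The fatty acid mean was 0.661 there, against 0.354 and 0.361, and the sterol minus fatty acid difference 0.24, against 0.55 and 0.54. The part of RNA integrity and of array brightness in these values, and in the comparisons with 0 h, was not tested. The summed signal of the hepatocyte markers (11 tested of 12, albumin among them) ranged from 462230 to 507756 on the 0 h arrays. It ranged from 205367 to 253023 on the 24 h arrays and from 143954 to 155481 on the 48 h arrays. The labelled hepatocyte character was thus present at 0 h, and this sum was lower at 24 h and lowest at 48 h. The sum of 5 cholangiocyte markers tested of 7 went from 4638 to 5132 at 0 h to 13394 to 19692 at 24 h, most of it KRT19, with a mean signal of 3357 and then 14869, while SOX9 had 517 and 485. The sum of 6 fibroblast and stellate markers tested of 7 went from 760 to 908 at 0 h to 1553 to 1984 at 24 h. In mean signal, DCN went from 380 to 1063 and LUM from 111 to 352. The others were dim and not higher: COL1A1 had 163 and 154, COL1A2 70.8 and 70.7, COL3A1 51.4 and 36.2, and PDGFRB 55.6 and 38.8. The endothelial sum (2 of 5 tested) was 302 to 414 at 0 h and 55.5 to 162 at 24 h, the leukocyte sum (4 of 6) 550.2 to 785 and 279.7 to 364, and the adipocyte sum (2 of 4) 88.7 to 203 and 45.1 to 98.7, with VWF, CDH5, TEK, PTPRC, CD68, PLIN1 and LEP too dim to be tested. The part of these marker changes in the results below was not tested. In these bulk samples, fewer cells of a type and less RNA per cell cannot be told apart.

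Sterol enzymes were lower after replating, step by step, and 12 of the 16 had their lowest mean signal at 24 h. At 24 h, 14 of the 16 were called lower than at 0 h and none higher, against 11.2% of all genes called lower and 10.4% called higher. The median log2 change of the 16 was -1.75, and that of all genes was -0.094. On 15 of the 16, every 24 h array lay below every 0 h array, which was so for 24.4% of all genes. The fall to 24 h and the return at 48 h are named in the rule that chose these genes, so their direction is a description and not independent evidence.

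The number of sterol enzymes called rose over the first day, though not always by the same genes. At 1 h none of the 29 genes was called in either direction, against 0.602% of all genes lower and 2.22% higher. By 4 h 4 sterol enzymes were lower (IDI1, SQLE, SC5D and DHCR7), with a background of 7.11%. The count was 7 by 8 h, with 10.1% of all genes lower, and 9 by 12 h, with 10.6%. It was 10 by 16 h, with 11.9%, and then the 14 of 24 h. SQLE was called at 4 and 24 h but not between, MVD not at 12 h and MVK not at 16 h. No member of any group was called higher than at 0 h at any time, where the share of all genes called higher was 7.6% (4 h), 8.41% (8 h), 8.72% (12 h) and 9.19% (16 h). All of these comparisons share the 0 h arrays. The F-test over all 7 later times passed an adjusted p of 0.05 for 16 of 16 sterol enzymes, 6 of 8 genes of the fatty acid branch and 4 of 5 regulators, and for 58.9% of all genes.

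**Figure D1:**
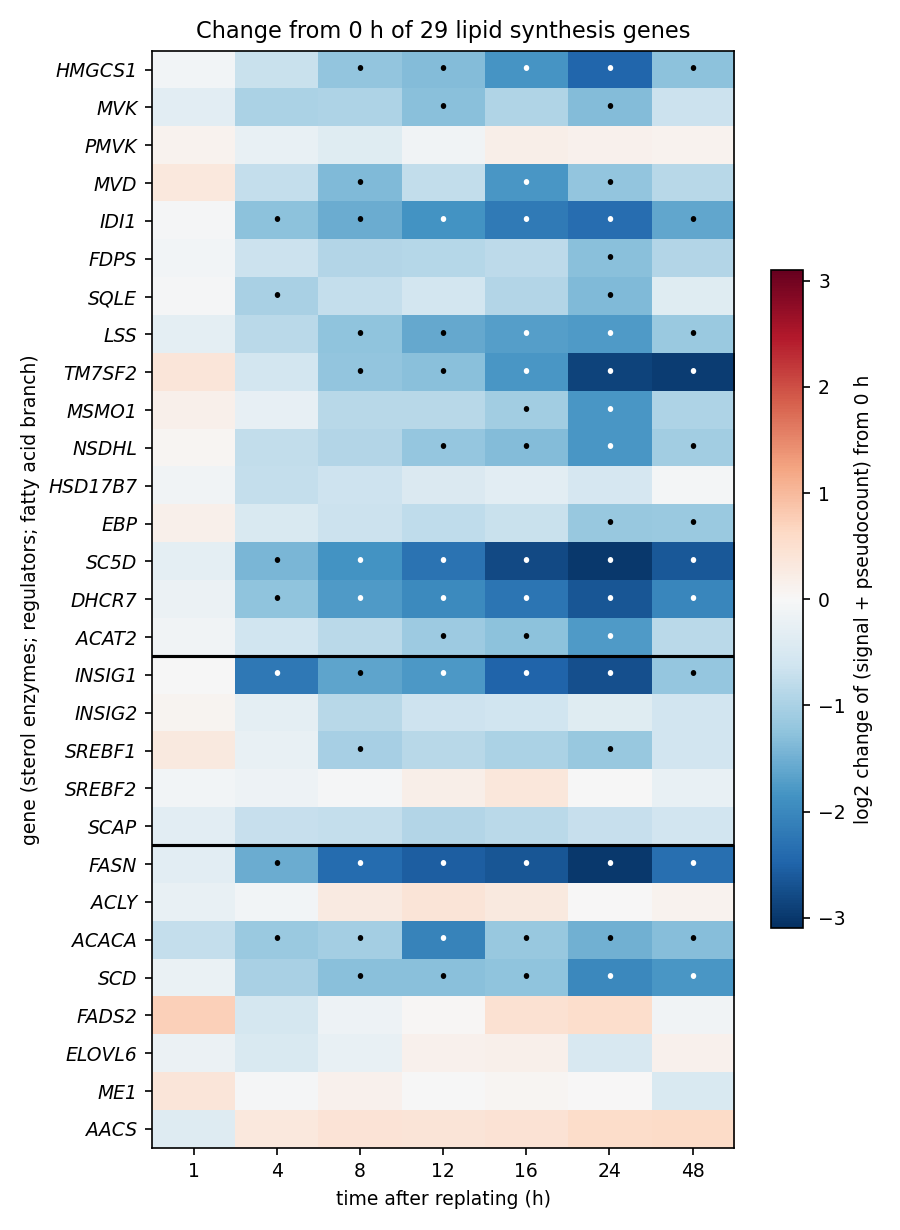
Heat map of the log2 change from 0 h (colour scale) of each of the 29 genes, in rows by group, at each later time in hours, in columns; each cell is a difference of means of 3 arrays on the log2(signal + 18.1) scale, and a dot marks a called change. Sterol enzymes turn lower from 4 h and 14 of 16 are called lower at 24 h, while in the fatty acid branch FASN, ACACA and SCD are lower and the rest are not called.

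The first calls between neighbouring times came between 1 and 4 h. In that step MVD, IDI1, SC5D and DHCR7 were called lower (4.44% of all genes were lower and 6.48% higher), as were INSIG1 and FASN. The steps from 4 to 8 h, 8 to 12 h and 12 to 16 h gave no call for any member, against 1.94%, 0.171% and 0.13% of all genes lower and 1.28%, 0.311% and 0.11% higher. From 16 to 24 h only TM7SF2 was called lower (0.492% of all genes lower, 0.823% higher), by 1.05 on the log2 scale (adjusted p = 0.00014). That call is lost without 16 h replicate 1 or without 24 h replicate 2.

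With the adjusted p alone, many more of the sterol enzymes were lower early on, by less than 2-fold. Relative to 0 h, 13 of 16 were lower by 4 h, 16 by 8 h and 14 by 12 h, where 18.4%, 20.8% and 20.3% of all genes were lower by the same rule. At 48 h 13 were lower, against 19.4%. Between neighbouring times, 14 were lower from 1 to 4 h (12.7% of all genes). From 4 to 8 h 3 were lower, HMGCS1, TM7SF2 and MSMO1 (5.39%). In the step from 16 to 24 h 5 were lower, HMGCS1, FDPS, TM7SF2, MSMO1 and EBP (1.56%). Over the same comparisons, the rule added SCD and ELOVL6 at 4 h to the lower genes of the fatty acid branch. By steps it added SCD from 1 to 4 h, FASN from 4 to 8 h, and SCD and ELOVL6 from 16 to 24 h. It also gave 1 gene higher in each of 2 comparisons, ACLY at 12 h (17.2% of all genes higher) and AACS from 1 to 4 h (12.8%).

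Of the enzymes that make mevalonate, HMGCS1, the cytosolic HMG-CoA synthase, had signals of 6183, 6901 and 6298 at 0 h, 809.5, 1329.9 and 1415 at 24 h, and 2553, 2505 and 2984 at 48 h. The 3 times do not overlap, with the lowest arrays at 24 h. HMGCS1 changed by -0.69 at 4 h (SE 0.15, adjusted p = 0.00054), short of 2-fold, and by -2.47 at 24 h (SE 0.15, adjusted p = 6.5e-15). Its second probe set gave -2.64 at 24 h. ACAT2, which makes the acetoacetyl-CoA that HMGCS1 uses, had 4216, 3736 and 3736 at 0 h and 1019, 941 and 1574 at 24 h, a log2 change of -1.75 (SE 0.18, adjusted p = 1.1e-09). The 24 h arrays of ACAT2 lay well below those at 0 h, with 1 of them higher than the other two.

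The kinases and the decarboxylase that turn mevalonate into isopentenyl diphosphate did not move as 1 block. MVK, mevalonate kinase, had 628, 667 and 715 at 0 h and 286, 244 and 229 at 24 h (log2 change -1.35, SE 0.20, adjusted p = 1e-06), and its other probe sets gave -1.04 and -0.31, so the size is uncertain. PMVK, phosphomevalonate kinase, had 1112, 1099 and 1219 at 0 h and 1253, 1237 and 1260.1 at 24 h, a log2 change of 0.13 (SE 0.14, adjusted p = 0.50). It is the sterol enzyme whose 24 h arrays all lay above those at 0 h. MVD, the decarboxylase, had 389, 239.8 and 236 at 0 h and 97.6, 98.5 and 140.2 at 24 h (log2 change -1.21, SE 0.38, adjusted p = 0.01). The MVD call rests on 0 h replicate 1, its highest array, since without it the change was -0.99 (adjusted p = 0.067).

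IDI1, which isomerises isopentenyl diphosphate, and FDPS, which joins the units into farnesyl diphosphate, both fell. IDI1 had 17001, 21198 and 19786 at 0 h and 3074, 3925 and 4209 at 24 h, a log2 change of -2.37 (SE 0.16, adjusted p = 9.8e-14). Both of its probe sets are of a kind that can cross-hybridise with similar transcripts, so IDI1 is uncertain. FDPS had 16785, 16911 and 16943 at 0 h and 5922, 6906 and 8054 at 24 h, a log2 change of -1.29 (SE 0.13, adjusted p = 3.3e-10). Neither gene's arrays overlap between these times.

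The steps that close the sterol ring also fell. SQLE, squalene epoxidase and a rate-controlling step of the pathway, had 3736, 4026 and 3550.2 at 0 h, 2046, 2093 and 1494 at 4 h, and 1286, 1387 and 1680.2 at 24 h. Its arrays were low by 4 h, with a log2 change of -1.01 then and -1.37 at 24 h (SE 0.14 for both, adjusted p = 6.5e-10 at 24 h). LSS, lanosterol synthase, had 3148, 3157 and 2901 at 0 h and 912, 923 and 851 at 24 h, a log2 change of -1.76 (SE 0.15, adjusted p = 1.2e-11). LSS was already close to this level by 12 h, where its arrays had 972, 1070.3 and 1000.4, all still above those at 24 h.

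The enzymes that turn lanosterol into cholesterol held both the largest falls and 1 gene with little change. SC5D, the sterol C5 desaturase, had 13384, 15134 and 12877 at 0 h and 1349, 2123 and 1740.4 at 24 h, a log2 change of -3.00 (SE 0.15, adjusted p = 4.6e-17). TM7SF2, a sterol C14 reductase, had 2195, 1711 and 1935 at 0 h and 247, 205 and 312 at 24 h, a log2 change of -2.86 (SE 0.17, adjusted p = 4.2e-15). DHCR7, which performs the last reduction, had 3385, 4108 and 4281 at 0 h and 521, 612 and 680.0 at 24 h, a log2 change of -2.66 (SE 0.18, adjusted p = 1.3e-13). For each of these genes the 24 h arrays are far below the lowest 0 h array.

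MSMO1, the C4 methyl oxidase, had changed little by 4 h. It had 12133, 17566 and 16856 at 0 h, 12711, 13061 and 12977 at 4 h, and 3920.0, 4049 and 5230.3 at 24 h. The 4 h arrays overlap those at 0 h, and the 24 h arrays do not. The log2 change was -0.25 at 4 h (adjusted p = 0.26), -0.87 at 8 h and -1.81 at 24 h (SE 0.16, adjusted p = 3.2e-11). NSDHL, which removes the same methyl groups with MSMO1, fell by 1.81 at 24 h (SE 0.16, adjusted p = 6.7e-11). EBP, the sterol isomerase, changed by -1.17 (SE 0.13, adjusted p = 3.7e-09), but its other probe sets gave -0.76 and -0.55, and it falls short of 2-fold when each array is centred on its median (-0.96). HSD17B7, the 3-ketosteroid reductase of this route, read by a probe set that can cross-hybridise, changed by -0.53 at 24 h (SE 0.15, adjusted p = 0.0043) and was not called.

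**Figure D2:**
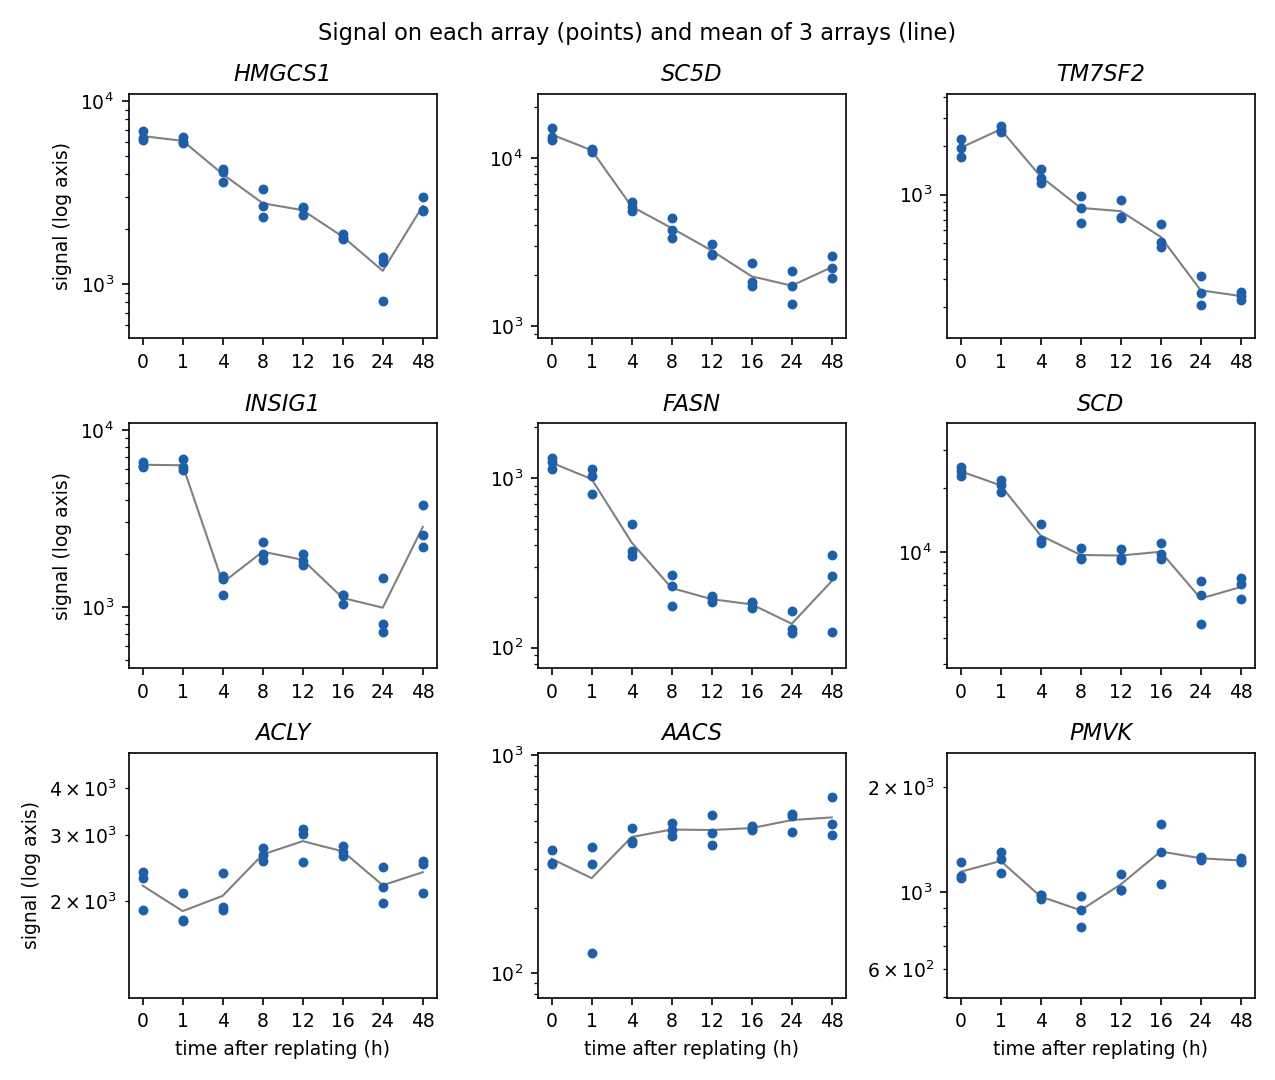
Signal of individual arrays (points, logarithmic axis) against hours after replating (times in order, not to scale) for 9 genes, with the line through the mean of the 3 arrays. HMGCS1 and INSIG1 are lowest at 24 h and higher at 48 h, TM7SF2 stays at its 24 h level, and FASN and SCD stay low.

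From 24 to 48 h some of the sterol enzymes came back in part. HMGCS1 was the 1 sterol enzyme called higher, and INSIG1 was called too, against 0.321% of all genes called higher and 0.873% lower. With the adjusted p alone, 8 of 16 sterol enzymes were higher (HMGCS1, MVK, IDI1, SQLE, LSS, MSMO1, NSDHL and ACAT2), against 1.35% of all genes. On 11 of 16, every 48 h array lay above every 24 h array, which was so for 8.87% of all genes. The median log2 change of the 16 was 0.62, and that of all genes was -0.02. Most of these differences were therefore smaller than 2-fold.

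HMGCS1 rose by 1.20 on the log2 scale (SE 0.15, adjusted p = 1.2e-06) from its 24 h level. Its call rests on 24 h replicate 1, the lowest of its arrays, since without it the change was 0.95 (adjusted p = 2.3e-05) and short of 2-fold. SQLE, with 3239.8, 2757 and 2714 at 48 h, changed by 0.996 (SE 0.14, adjusted p = 7.1e-06), just under the fold threshold. Its 48 h arrays lay below those at 0 h and well above those at 24 h. ACAT2 changed by 0.92 (adjusted p = 0.0012), MSMO1 by 0.84 (adjusted p = 7e-04), IDI1 by 0.76 (adjusted p = 0.0034) and NSDHL by 0.74 (adjusted p = 0.0046). LSS and MVK were smaller, at 0.61 and 0.68.

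For the other sterol enzymes the change from 24 to 48 h did not pass the adjusted p. TM7SF2 had 248, 222 and 234 at 48 h, a log2 change of -0.09 from 24 h (SE 0.17, adjusted p = 0.89). EBP had 5495, 5316 and 4568, a change of 0.03 (SE 0.13, adjusted p = 0.96). SC5D had 2596, 1918 and 2200.3, a change of 0.37 (SE 0.15, adjusted p = 0.19). For these genes the 48 h arrays overlap the 24 h arrays. FDPS, DHCR7 and HSD17B7 had all 48 h arrays above all 24 h arrays, with changes of 0.37, 0.63 and 0.47 whose adjusted p were 0.10, 0.052 and 0.073. HSD17B7 was near its 0 h level at 48 h, with a log2 difference of -0.055. PMVK, which was not lower at 24 h, and MVD overlapped, with changes of -0.02 and 0.36.

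Set against 0 h, 8 of 16 sterol enzymes were still called lower at 48 h (HMGCS1, IDI1, LSS, TM7SF2, NSDHL, EBP, SC5D and DHCR7) and none higher, with 11.7% of all genes lower and 9.82% higher. The remaining log2 differences from 0 h ranged from -2.95 for TM7SF2 (SE 0.17, adjusted p = 1.3e-15) to 0.11 for PMVK. SC5D had -2.62 (SE 0.15, adjusted p = 5.5e-16), SQLE -0.38 and HSD17B7 -0.055. HMGCS1 was lower by 2.41-fold, with a log2 change of -1.27. The median of the 16 was -1.02, and that of all genes -0.12. Centring each array on its median leaves 5 of the 8, with LSS, NSDHL and EBP short of 2-fold. That scaling moves the median of all genes at 24 h from -0.094 to 0.12. The comparisons of 24 h with 0 h, 48 h with 24 h and 48 h with 0 h share arrays, so their values are not independent of one another.

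**Figure D3:**
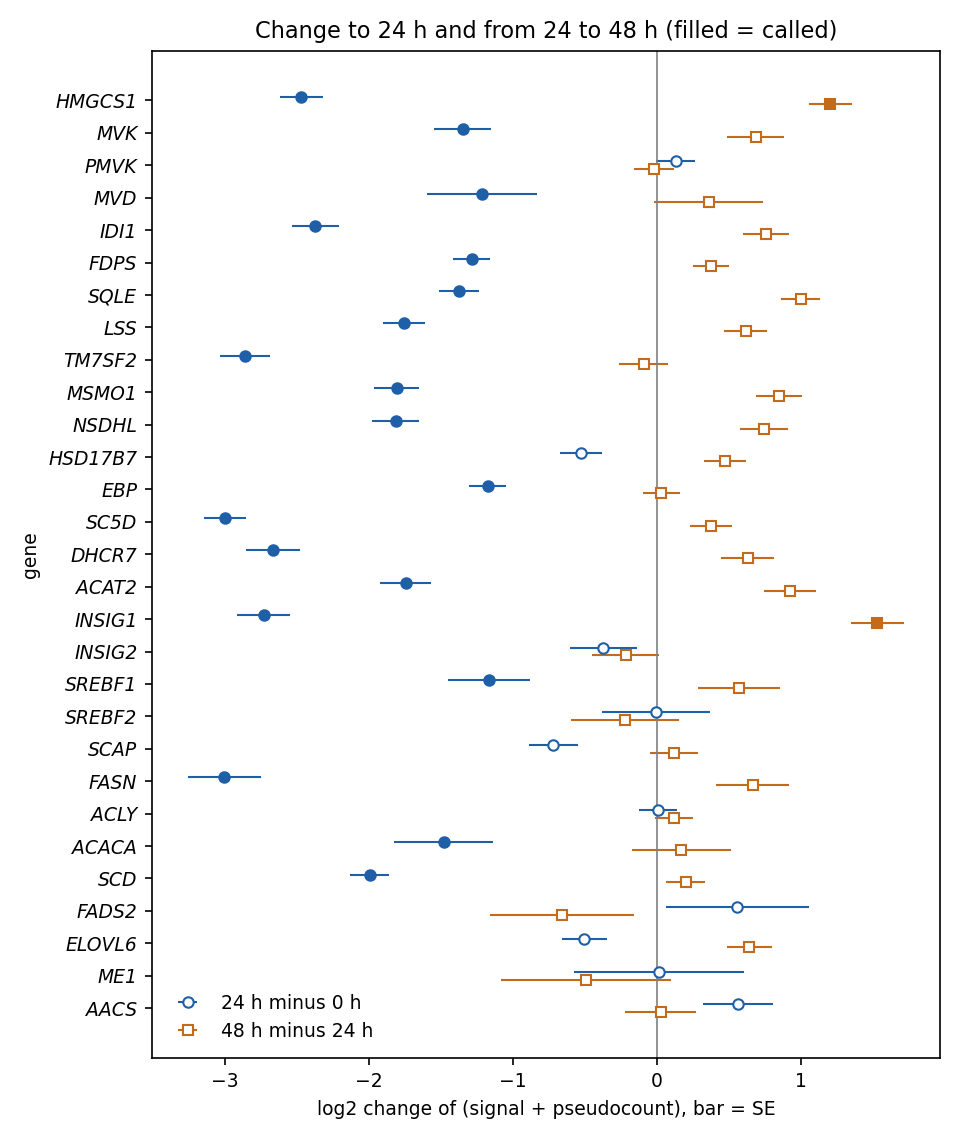
Log2 change (horizontal axis, bars are SE) of each of the 29 genes (vertical axis) from 0 to 24 h (blue circles) and from 24 to 48 h (orange squares), filled where called; both comparisons use the 24 h arrays. TM7SF2 has -2.86 and then -0.09, while HMGCS1 and INSIG1 have the 2 filled squares, at 1.20 and 1.53.

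Among the regulators, INSIG1 alone was called lower at 4 h, and on the probe sets used it had the largest change then. The SCAP arrays all lay below those at 0 h already at 1 h, by -0.33 (adjusted p = 0.33). At 4 h SCAP was at -0.72 (adjusted p = 0.0011), short of 2-fold. INSIG1 had 6603, 6189 and 6275 at 0 h, 6193, 6817 and 5920.1 at 1 h, 1446, 1169.7 and 1495 at 4 h, 721, 798 and 1450.2 at 24 h, and 2542, 2178 and 3771 at 48 h. The 1 h arrays overlap those at 0 h, and from 4 h on every array lies far below. The log2 change from 0 h was -2.21 at 4 h (SE 0.18, adjusted p = 2.1e-11). It was smaller at 8 and 12 h, with -1.63 and -1.78, and larger again at 16 and 24 h, with -2.48 and -2.73 (adjusted p = 9.3e-13 and 6.6e-14). INSIG1 rose by 1.53 from 24 to 48 h (adjusted p = 5.2e-07) and was still lower than at 0 h at 48 h, by -1.20 (adjusted p = 2.4e-06). Its probe sets agree on the direction but not on the size: the other two gave -0.75 and -2.02 at 4 h, and 0.93 and 0.64 from 24 to 48 h. Centring each array on its median puts the 48 h difference from 0 h at -0.94, short of 2-fold.

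SREBF1 had 237, 341 and 373 at 0 h, 149.9, 141.6 and 99.7 at 24 h, and 197, 198 and 205 at 48 h. The 24 h arrays lie below, and the 48 h arrays between, those of the other times. Its log2 change was -1.02 at 8 h (adjusted p = 0.0046) and -1.17 at 24 h (SE 0.28, adjusted p = 0.0012), and 0.57 from 24 to 48 h (adjusted p = 0.37). With a larger pseudocount the 24 h change was -0.93, and with median centring -0.95.

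SREBF2 had 271, 273 and 117 at 0 h and 175, 191 and 260.1 at 24 h, which overlap. Its log2 change at 24 h was -0.01 (SE 0.37, adjusted p = 0.99), and the F-test over all times gave an adjusted p of 0.86. With this SE, changes of moderate size could have been missed. The second SREBF2 probe set gave -0.50 at 24 h. SCAP, with 811, 979.7 and 894 at 0 h and 554, 562 and 492 at 24 h, changed by -0.72 (SE 0.17, adjusted p = 0.00076) without reaching 2-fold, and its 24 h arrays lay below all 0 h arrays. INSIG2 changed by -0.37 at 24 h (SE 0.23, adjusted p = 0.21), with overlapping arrays. Its arrays all lay below those at 0 h at 8 h, by -0.85 (adjusted p = 0.0038), and at 12 h, by -0.65 (adjusted p = 0.027). At 48 h they overlapped those at 0 h, with -0.59 (adjusted p = 0.043). None of these INSIG2 changes reached 2-fold, and the F-test over all times gave an adjusted p of 0.0067.

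In the fatty acid branch 3 of 8 genes were called lower at 24 h (FASN, ACACA and SCD), and none higher, against 11.2% of all genes lower and 10.4% higher. The median log2 change of the 8 was -0.25 at 24 h, 0.14 from 24 to 48 h and -0.29 at 48 h against 0 h. These 3 genes were called lower at every time from 8 h on, when 10.1% to 11.9% of all genes were lower, and FASN and ACACA already at 4 h (7.11%). All 24 h arrays lay below all 0 h arrays for 4 of the 8, against 24.4% of all genes. All 48 h arrays lay above all 24 h arrays for 1 of the 8, ELOVL6, a share near the 8.87% of all genes.

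FASN, the synthase that builds palmitate, had 1249, 1127 and 1313 at 0 h, 347, 370.3 and 532 at 4 h, 128, 165 and 121 at 24 h, and 124, 263 and 353 at 48 h. Its 24 h and 48 h arrays overlap, and those at 48 h are spread widely. The log2 change was -1.54 at 4 h (adjusted p = 1.2e-05) and -3.00 at 24 h (SE 0.25, adjusted p = 1.4e-11). From 24 to 48 h it was 0.66 (SE 0.25, adjusted p = 0.17), and 1.06 without 48 h replicate 1 (adjusted p = 0.0078). The second FASN probe set, above the 40th percentile on only 29.2% of arrays, gave -0.67 at 24 h. SCD, the stearoyl-CoA desaturase, had 22629, 24985 and 23922 at 0 h, 4609, 7323 and 6313 at 24 h, and 6020.2, 7079 and 7557 at 48 h. The late arrays overlap each other and lie far below 0 h. Its log2 change was -0.998 at 4 h, just short of 2-fold, -1.99 at 24 h (SE 0.14, adjusted p = 9.4e-14) and 0.20 from 24 to 48 h (adjusted p = 0.58). All 4 SCD probe sets gave between -1.99 and -2.45 at 24 h. From 24 to 48 h the other SCD probe sets gave 0.70, 0.56 and 0.39, so the size of that change is uncertain.

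ACACA, the carboxylase that makes malonyl-CoA, had 782, 732 and 655 at 0 h and 290.2, 199 and 261 at 24 h, a log2 change of -1.48 (SE 0.34, adjusted p = 0.00073). Its second probe set went the other way, with 1.05 at 24 h and 1.99 at 48 h, so the direction of ACACA is uncertain. The mean of both gave -0.21 at 24 h (adjusted p = 0.62).

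In this branch the genes of acetyl-CoA and acetoacetyl-CoA supply, ACLY and AACS, were not called at any time. ACAT2, which also makes acetoacetyl-CoA, is counted with the sterol enzymes and was called lower at 24 h. ACLY, which supplies cytosolic acetyl-CoA from citrate, had 1893, 2314 and 2400.2 at 0 h and 2463, 2187 and 1974 at 24 h, with a log2 change of 0.01 (SE 0.13, adjusted p = 0.98). Its arrays overlap at these times, and at 12 h all of them lay above 0 h, by 0.39 (adjusted p = 0.018). The other ACLY probe sets gave -0.05 and -0.07 at 8 h, where the probe set used gave 0.28, and -0.35 and -0.07 at 24 h. The rise of ACLY is therefore uncertain. AACS, which activates acetoacetate for lipid synthesis, had 366, 316 and 322 at 0 h, 444, 529 and 538 at 24 h, and 486, 429 and 640.4 at 48 h. All its arrays from 4 h on lie above those at 0 h, with changes of 0.56 at 24 h (SE 0.24, adjusted p = 0.067) and 0.59 at 48 h (adjusted p = 0.055), which did not pass the test.

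ELOVL6, which elongates palmitate, had 1045, 991 and 974 at 0 h, 696, 572 and 867 at 24 h, and 1131, 1094 and 1087 at 48 h. Its 24 h arrays are low and its 48 h arrays are back above those at 0 h. The log2 change was -0.50 at 24 h (SE 0.16, adjusted p = 0.0099) and 0.64 from 24 to 48 h (adjusted p = 0.013), both short of 2-fold. The second ELOVL6 probe set gave -0.20 and 0.45, the same directions but smaller, so the size of both changes is uncertain. FADS2, the delta-6 desaturase, and ME1, the malic enzyme that supplies NADPH, were dim: 45.8% and 12.5% of arrays lay above their own 40th percentile. Their log2 changes at 24 h were 0.56 (SE 0.50) and 0.01 (SE 0.59), and the F-test over all times gave adjusted p of 0.26 and 0.94. Changes in FADS2 and ME1 were not detectable at this signal.

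To set the branches side by side, each gene was centred on its mean over the 24 arrays and averaged within its branch, a description with no test. The sterol mean was 0.904 ± 0.0016 (SD, n = 3) at 0 h, -0.80 ± 0.13 at 24 h and, at 48 h, -0.25 ± 0.052. That of the fatty acid genes was 0.46 ± 0.17 at 0 h, -0.27 ± 0.15 at 24 h and -0.19 ± 0.12 at 48 h. From 0 to 24 h the sterol mean dropped further than the fatty acid mean, and from 24 to 48 h it gained more. The sterol minus fatty acid difference was 0.55, 0.24 and 0.54 on the 0 h arrays, -0.75, -0.62 and -0.22 on the 24 h arrays, and 0.09, -0.02 and -0.24 on the 48 h arrays. The 0 h and 24 h arrays do not overlap in this difference, and the 48 h arrays lie below those at 0 h, 1 of them within the 24 h range. Without ACLY and AACS the difference was 0.23 ± 0.23 at 0 h and -0.41 ± 0.32 at 24 h, so its size at 0 h depends on these supply genes. The 0 h arrays then had 0.35, -0.041 and 0.37, and the highest 24 h array -0.049. The 48 h arrays, with 0.24, 0.09 and -0.15, then overlapped those at 0 h. As each gene is centred on its own mean, the difference at 1 time is relative to the other times. It is not a difference in level between the branches. The dim genes FADS2 and ME1 are part of the fatty acid mean.

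**Figure D4:**
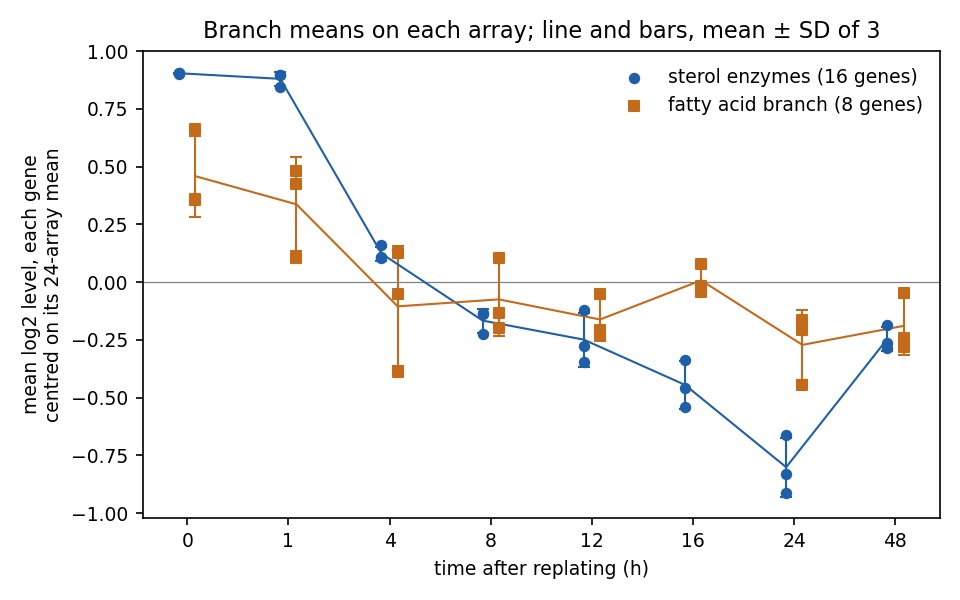
Mean of the centred log2 levels of the 16 sterol enzymes and of the 8 genes of the fatty acid branch on each of the 24 arrays (points), with the mean ± SD of 3 arrays per time (lines and bars), against hours after replating (times in order, not to scale). The sterol mean falls from 0.904 at 0 h to -0.80 at 24 h and is -0.25 at 48 h, and the fatty acid mean goes from 0.46 to -0.27 and -0.19.

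The profiles of the sterol enzymes were mostly alike, and those of the fatty acid branch were mixed. Over the 24 arrays the median correlation was 0.79 among the 120 pairs of sterol enzymes (-0.26 to 0.97), 0.03 among the 28 pairs of the fatty acid branch (-0.65 to 0.92) and 0.08 among the 128 pairs between the branches. The dim genes FADS2 and ME1 enter 13 of the 28 pairs, and the 15 pairs without them had a median of -0.0062, an alternative chosen after seeing the data. The arrays share 1 time course, so these values describe how profiles follow it. Against the mean of the other sterol enzymes, IDI1 had a correlation of 0.98, DHCR7 0.97 and SC5D 0.96. HSD17B7 had 0.45 and PMVK -0.08. FASN and SCD followed the sterol mean at 0.94 and 0.93, INSIG1 at 0.88 and SREBF1 at 0.83, while ELOVL6 had 0.07, ACLY -0.51 and AACS -0.68.

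Other genes of lipid synthesis and its control were taken from a list of 47, of which 33 were tested. At 24 h 17 of the 33 were called lower than at 0 h and none higher, with the background of 11.2% and 10.4% given above. They included MLXIPL, a carbohydrate-responsive regulator of lipogenesis, with a log2 change of -3.47 (SE 0.41). ACSL1, which activates long-chain fatty acids, changed by -3.30 (SE 0.17), and DGAT1, which makes triglyceride, by -3.06 (SE 0.22). IDH1, a cytosolic source of NADPH, changed by -2.94 (SE 0.20). From 24 to 48 h ACSL1 alone of the 33 was called higher, by 1.10 (adjusted p = 2.8e-05). TMEM97, a sterol-responsive membrane protein, changed by -1.55 at 24 h (adjusted p = 3e-10). MBTPS1 and MBTPS2, the proteases that cleave the SREBF products, changed by -0.25 (adjusted p = 0.29) and -0.0036 (adjusted p = 1) and were not called. LBR, a nuclear envelope protein that shares the C14 reductase reaction with TM7SF2, was called higher at 4 h, by 1.29 (adjusted p = 2.4e-06). Its mean signal was 997 at 0 h, 2485 at 4 h and 813 at 8 h. LBR changed by 0.83 at 24 h (SE 0.19, adjusted p = 0.00063), short of 2-fold, and was called higher again at 48 h.

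The 10 genes outside the list whose arrays followed the sterol mean most closely had correlations of 0.952 to 0.979 over the 24 arrays. The first was SLC37A4, the endoplasmic reticulum glucose 6-phosphate transporter, at 0.979, followed by SERPINA5, a plasma protease inhibitor, at 0.979, SORL1, a sorting receptor, at 0.972, and ECHS1, an enzyme of fatty acid oxidation, at 0.971. The others were SEPHS2, IDH1, CYP3A5, TMEM135, EFNA1 and ACACB. Being chosen for that likeness, all 10 were lower at 24 h, with log2 changes from -1.15 for ECHS1 to -3.97 for CYP3A5. From 24 to 48 h EFNA1 changed by 1.33 (adjusted p = 6e-06), SERPINA5 by 0.83 (adjusted p = 0.00017) and IDH1 by 0.91 (adjusted p = 0.0033), and the other 7 had adjusted p from 0.14 to 0.83.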

How the data were processed

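RNA from 24 HepaRG samples was hybridised to a 1-colour Affymetrix human array. The authors' deposited values are linear intensity signals, 1 per probe set and array, made with MAS5 per the submitters' processing notes; its version is not given in the sources used here. The number of arrays limits the precision. Samples were grouped by the labelled time.

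Probe sets entered the test where 3 or more arrays lay above their own 40th percentile, and the brightest tested probe set with 1 symbol stood for its gene. The pseudocount of 18.1 is the 20th percentile of all signals. limma 3.58.1 in R 4.3.3 (lmFit, eBayes with trend, 16 residual degrees of freedom) was fitted over all 24 arrays without a replicate block, with two-sided p-values adjusted by Benjamini-Hochberg over the 9966 genes. The script was tested on simulated data. Named genes were all members, the 10 genes most like the sterol mean, and the 4 called genes of the wider list with the largest changes at 24 h against 0 h and at 48 h against 24 h; TMEM97, MBTPS1, MBTPS2 and LBR were chosen after their values were seen. The members and lists were chosen with earlier results of these data known. Alternatives covered the pseudocount, normalization, filter, probe set, samples, block, fold threshold, variance trend and each array left out.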

Additional observations from a re-analysis of the deposited data

How the results depend on the processing

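At 24 h against 0 h, 14 sterol enzymes were called lower with the replicate block, 13 to 14 with any 1 array left out and 12 to 15 under the other settings. The fatty acid branch had 3 called, but 2 with probe sets averaged by gene, which ended the calls of ACACA, MVK and EBP, and 4 without the fold threshold. Same-numbered replicates did not deviate together (correlations of -0.067 to 0.065 over 84 pairs, none above 0.1), so the numbers are taken as names, and the replicate block left 1 sterol enzyme called higher from 24 to 48 h. Without the fold threshold, 13 sterol enzymes were lower than at 0 h by 4 h, 16 by 8 h and 14 by 12 h, and 13 were lower at 48 h. Of all genes, 18.4%, 20.8%, 20.3% and 19.4% were lower by that setting. The steps then gave 14 lower (1 to 4 h), 3 lower (4 to 8 h), 5 lower (16 to 24 h) and 8 higher (24 to 48 h). In these steps 12.7%, 5.39% and 1.56% of all genes were lower, and 1.35% higher. In the fatty acid branch that setting gave 4 lower at 4 h, and in the same steps 2, 1 and 2 lower, with 1 higher at 12 h and in the first and the last step. Of all genes, 17.2% were higher at 12 h and 12.8% from 1 to 4 h. Median centring gave 5 sterol enzymes lower at 48 h, 2 lower from 1 to 4 h and 2 higher from 24 to 48 h, and 1 gene of the fatty acid branch lower at 16 h. The count from 24 to 48 h was 2 with no pseudocount, and that from 16 to 24 h was 0 with the larger pseudocount. With 1 array left out, sterol calls ranged from 0 to 1 from 16 to 24 h and from 0 to 3 higher from 24 to 48 h, the 0 without 24 h replicate 1. Fatty acid calls ranged from 1 to 3 at 4 h (1 without 4 h replicate 2), from 1 to 2 lower and 0 to 1 higher from 1 to 4 h, and from 0 to 1 higher from 24 to 48 h. Without ACLY and AACS the sterol minus fatty acid mean was 0.23 at 0 h and 0.26 at 1 h. The ACACA log2 change at 48 h reversed to 0.34 (adjusted p = 0.41) when its probe sets were averaged. The cause of these shifts was not tested. Dim signals limit FADS2, ME1 and MVD.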
